A study of Mus musculus with 15 samples.

Results

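Ketone bodies were followed through 4 genes of the liver of newborn mice: Bdh1, Acat1, Oxct1 and Slc16a1. They were taken as the non-control array probes whose gene name in the scanner files is one of these symbols, which gave 6 of 55681 probes and 4 of 27554 genes measured. Bdh1 had 3 probes and each of the others had 1, and for Bdh1 the brightest probe stood for the gene. Acat1, Oxct1 and Slc16a1 thus had no second probe to check the first against.

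Livers were collected on postnatal day 1 (P1) from C57BL/6J pups, and each array held the RNA of a single pup. Hypoglycaemic KO pups (n = 7) lacked the miR-379/miR-410 microRNA cluster on the chromosome inherited from the mother and had a blood glucose of 19.9 ± 9.34 mg/dl (SD), between 9 and 33. Normoglycaemic KO pups (n = 3) carried the same maternal deletion and had 48 ± 6.93 mg/dl, between 44 and 56; the sample titles call them normoglycemic, and the series' design text calls them mildly hypoglycaemic. Wild-type littermates (n = 5) had 58.6 ± 9.56 mg/dl, between 50 and 72. The KO pups were divided by their own glucose, so that genotype is shared by both KO groups while glucose is not. The labels give neither sex nor the time since the last feed, and the mice had free access to chow and water.

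Ketone bodies are small acids that the liver makes from acetyl-CoA, mainly out of fatty acids, and releases for other organs to burn when glucose is short. In liver mitochondria acetyl-CoA units end up as acetoacetate, which is partly reduced to beta-hydroxybutyrate, and both leave the cell through monocarboxylate transporters. Hepatocytes are known for holding very little of the enzyme that reactivates acetoacetate, so that the liver exports ketone bodies and does not burn them. The suckling newborn, whose milk is rich in fat, is a classic setting of this pathway.

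The promoters of Bdh1 and Slc16a1 are shown because these genes had the widest differences between hypoglycaemic KO and wild-type livers in each direction. They are the 250 bases before an annotated start, from RefSeq (GRCm38.p6, plus strand), in which 3 of the 4 genes were matched; Acat1 is named only. Bdh1 has 2 starts there, at chr16:31422047-31422296 and at chr16:31428503-31428752, with 49.6% and 60.8% G or C. The Slc16a1 window, chr3:104638414-104638663, has 76.4%, against a median of 52.4% over 32851 promoters of the same length. Capitals mark matches to 7 motifs searched on both strands.
Bdh1, upstream start: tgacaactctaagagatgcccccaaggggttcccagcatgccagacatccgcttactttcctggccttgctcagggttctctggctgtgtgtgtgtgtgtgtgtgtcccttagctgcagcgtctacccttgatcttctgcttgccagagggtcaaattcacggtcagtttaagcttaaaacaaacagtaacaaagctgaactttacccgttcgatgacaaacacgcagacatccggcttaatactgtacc
Bdh1, downstream start: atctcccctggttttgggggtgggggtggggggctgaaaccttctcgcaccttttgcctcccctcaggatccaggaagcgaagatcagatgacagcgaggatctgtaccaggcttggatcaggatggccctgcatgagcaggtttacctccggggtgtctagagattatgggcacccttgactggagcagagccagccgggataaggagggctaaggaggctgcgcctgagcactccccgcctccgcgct
Slc16a1: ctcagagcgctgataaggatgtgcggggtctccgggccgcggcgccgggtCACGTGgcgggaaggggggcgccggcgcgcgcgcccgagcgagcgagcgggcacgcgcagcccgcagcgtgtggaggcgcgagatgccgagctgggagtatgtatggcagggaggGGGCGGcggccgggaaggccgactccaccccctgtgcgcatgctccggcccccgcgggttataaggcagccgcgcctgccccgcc
In the Slc16a1 window an E-box (CACGTG), the letters read by MYC and other helix-loop-helix factors, begins 200 bases before the start, and an SP1 box (GGGCGG) begins 85 bases before it. These motifs are held by 6.02% and 32.7% of all promoter windows. Neither Bdh1 window, nor that of Oxct1 (chr15:4026178-4026427), holds any of the 7. The others searched were a direct repeat read by PPAR and RXR receptors (the PPRE, in 0.0335% of windows), an HNF4A core (CAAAGTCCA, 0.384%), a forkhead site (GTAAACA, 3.17%), a CRE (TGACGTCA, 1.55%) and a TATA box (TATAAA, 12.4%). No motif overlapped another in the windows printed. A match describes letters and says nothing of binding.

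Levels below are log2 values of the processed array signal relative to the 75th percentile of the same array, so that a difference of 1 is a 2-fold difference. That percentile lay between 663 and 912 signal units over the 15 arrays, and 57.9% to 76.2% of spots were well above background. Levels of different genes come from different probes and are not set against each other. The arrays lay on 2 slides, each with all 3 groups. The deletion was checked through Mirg, the noncoding transcript that spans the cluster. Its level was −3.02 to −1.23 in 6 hypoglycaemic KO livers and −2.80 to −2.68 in normoglycaemic KO livers, against 0.88 to 1.60 in wild-type livers. The library labelled hypoglycaemic KO replicate 2 had 0.66 and did not match its label, so the values of the 4 genes are given both with and without it. The 8 hepatocyte markers, albumin among them, were well above background on every array. Their summed signal relative to the 75th percentile was 3940 to 4532 in hypoglycaemic KO, 4237 to 4571 in normoglycaemic KO and 3837 to 4981 in wild-type livers. Pancreas acinar transcripts varied most between livers, with sums of 9.47 to 141 in hypoglycaemic KO, 12.6 to 687 in normoglycaemic KO and 13.6 to 103 in wild-type livers, and the 3 richest livers came one from each group. Fewer cells of a type and less RNA per cell cannot be told apart in whole liver.

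Acat1 encodes the mitochondrial thiolase that joins 2 acetyl-CoA into acetoacetyl-CoA, the entry to the pathway, and also acts in isoleucine breakdown. Its level lay lower in hypoglycaemic KO livers than in wild-type livers, by a modest amount and with 1 exception. Over the 7 hypoglycaemic KO livers the lowest, median and highest levels were 4.24, 4.49 and 4.99. The 3 normoglycaemic KO livers had 4.82, 5.00 and 4.98, and the 5 wild-type livers had 4.82, 5.12, 4.74, 4.88 and 4.90. Of the hypoglycaemic KO livers 6 lay below every wild-type and every normoglycaemic KO liver, and the one above them was the library labelled hypoglycaemic KO replicate 2. The mean was 4.54 ± 0.24 over hypoglycaemic KO livers (SD, n = 7), 4.93 ± 0.10 in normoglycaemic KO (n = 3) and 4.89 ± 0.14 in wild-type livers (n = 5). The difference between hypoglycaemic KO and wild type was −0.35 (SE 0.11, 95% interval −0.60 to −0.10), a 1.27-fold lower signal. It did not pass the adjustment over all genes (limma, Benjamini-Hochberg adjusted p = 0.139), while the exact 2-sided permutation test of this gene alone gave p = 0.0202. Without that library the difference was −0.43 (limma adjusted p = 0.0564, exact permutation p = 0.00216).

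Bdh1 encodes the mitochondrial dehydrogenase that interconverts acetoacetate and beta-hydroxybutyrate. It had the widest spread of the 4 genes between livers and the widest difference between groups. The hypoglycaemic KO livers had 3.54 at the lowest, 4.62 at the median and 5.69 at the highest. The normoglycaemic KO livers had 5.80, 6.61 and 6.47, and the wild-type livers 5.21, 6.67, 5.69, 5.69 and 6.48. All 7 hypoglycaemic KO livers lay below the wild-type mean and 4 of them below every wild-type liver, and all 7 lay below all 3 normoglycaemic KO livers. The means were 4.79 ± 0.83 over hypoglycaemic KO livers (SD, n = 7), 6.30 ± 0.43 in normoglycaemic KO (n = 3) and 5.95 ± 0.61 in wild-type livers (n = 5). Against wild type the difference of hypoglycaemic KO was −1.15 (SE 0.39, 95% interval −1.99 to −0.32), a 2.23-fold lower signal. The exact permutation test gave p = 0.0265, and the limma adjusted p was 0.147. It was −1.27 (limma adjusted p = 0.126, exact permutation p = 0.0238) without the library labelled hypoglycaemic KO replicate 2. Within slide 1 and slide 2 the Bdh1 differences were −0.89 and −1.50, and those of Acat1 −0.34 and −0.41.

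The 3 Bdh1 probes lie close to each other on chromosome 16 (mm9, plus strand). The brightest covers positions 31457378 to 31457437, with processed signals of 8502 to 80510 units over the 15 arrays. The second covers 31457249 to 31457308 with 4460 to 45451 units, and the dimmest 31458195 to 31458254 with 298 to 4669 units. Whether these positions are exonic, or in a UTR, is not annotated in the sources used here. Their differences between hypoglycaemic KO and wild type were −1.15, −1.15 and −1.33, and between normoglycaemic KO and wild type 0.35, 0.42 and 0.61. Across the 15 livers the probes correlated with each other at r = 0.995 to 0.998, as values of the same RNA samples. The plot of Bdh1 probes shows the 3 in each liver.

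**Figure D1:**
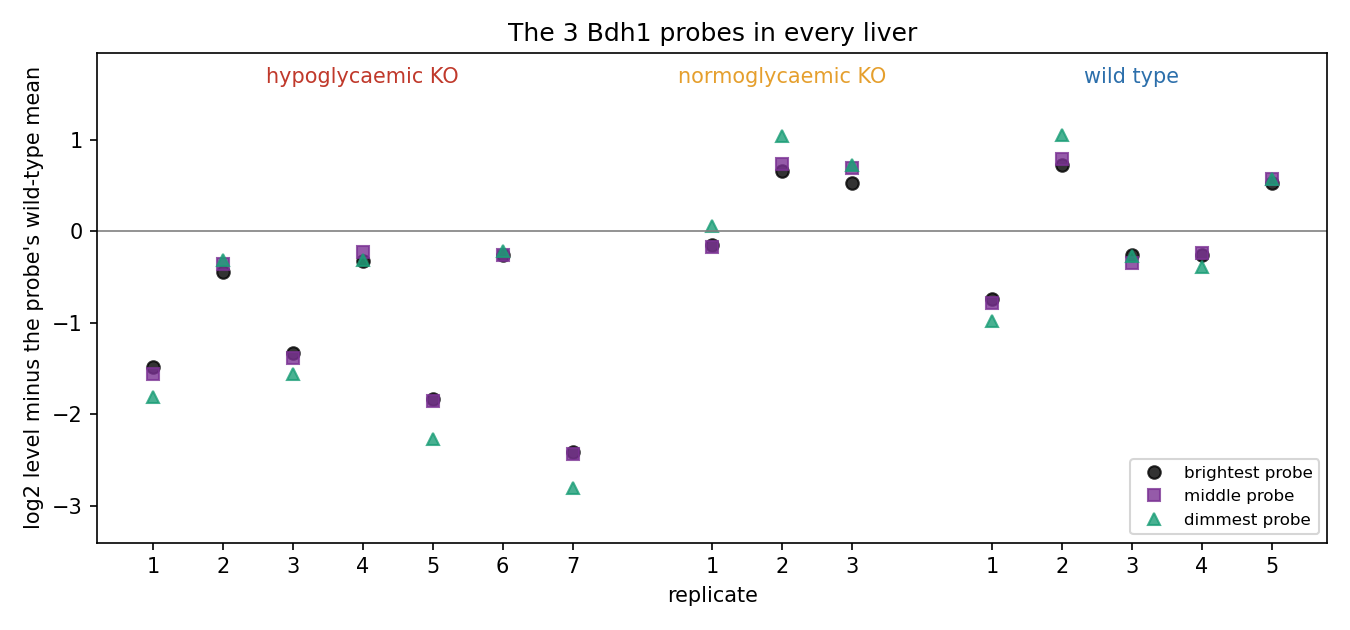
Log2 level of the 3 Bdh1 probes in each of the 15 livers, minus the mean of the same probe over the 5 wild-type livers (line at 0). The x axis gives the replicate number within hypoglycaemic KO, normoglycaemic KO and wild type. The symbols of the 3 probes rise and fall together over the livers, with the dimmest probe apart from the others in some of them. All 7 hypoglycaemic KO livers lie below 0 for the brightest probe.

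Oxct1 encodes succinyl-CoA:3-ketoacid CoA-transferase, the enzyme that reactivates acetoacetate for use as a fuel. Its level varied little between livers. The hypoglycaemic KO livers had 1.27 at the lowest, 1.40 at the median and 1.68 at the highest. The normoglycaemic KO livers had 1.27, 1.15 and 1.33, and the wild-type livers 1.57, 1.65, 1.49, 1.70 and 1.44. All 3 normoglycaemic KO livers lay below all 5 wild-type livers, while hypoglycaemic KO overlapped both groups. The means were 1.44 ± 0.13 over hypoglycaemic KO livers (SD, n = 7), 1.25 ± 0.10 in normoglycaemic KO (n = 3) and 1.57 ± 0.11 in wild-type livers (n = 5). Against wild type the difference was −0.14 in hypoglycaemic KO (95% interval −0.30 to 0.03, limma adjusted p = 0.359, exact permutation p = 0.0846). In normoglycaemic KO it was −0.32 (SE 0.10, 95% interval −0.53 to −0.11), a 1.25-fold lower signal, with a limma adjusted p of 0.965. The exact permutation p of 0.0179 is the smallest that 56 splits of 3 and 5 livers allow. The hypoglycaemic KO difference was −0.14 also without the library labelled hypoglycaemic KO replicate 2 (limma adjusted p = 0.391, exact permutation p = 0.104). The Oxct1 probe covers positions 4105196 to 4105255 of chromosome 15 (mm9, plus strand), with signals of 1697 to 2715 units, well above background on all 15 arrays. Oxct1 is highly expressed in heart and muscle, and the summed signal of the 6 muscle and heart markers measured was 0.447 to 1.38 in hypoglycaemic KO, 0.544 to 2.55 in normoglycaemic KO and 0.396 to 1.53 in wild-type livers. Of these Ckm, Tnnt3 and Mylpf were not well above background on all arrays.

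Slc16a1 encodes the monocarboxylate transporter MCT1, which carries lactate, pyruvate and ketone bodies across the cell membrane. It went the opposite way to Bdh1 and Acat1, by a small amount. The hypoglycaemic KO livers had −1.99 at the lowest, −1.89 at the median and −1.74 at the highest. The normoglycaemic KO livers had −2.07, −2.01 and −2.18, and the wild-type livers −1.87, −2.18, −2.21, −2.26 and −2.21. All 7 hypoglycaemic KO livers lay above the wild-type mean and above all 3 normoglycaemic KO livers, but wild-type replicate 1 lay among them. The means were −1.89 ± 0.09 over hypoglycaemic KO livers (SD, n = 7), −2.08 ± 0.08 in normoglycaemic KO (n = 3) and −2.15 ± 0.16 in wild-type livers (n = 5). The difference of hypoglycaemic KO from wild type was 0.25 (SE 0.08, 95% interval 0.09 to 0.42), a 1.19-fold higher signal, with a limma adjusted p of 0.124 and an exact permutation p of 0.0101. It was 0.16 within slide 1 and 0.30 within slide 2. Without the library labelled hypoglycaemic KO replicate 2 it was 0.24 (limma adjusted p = 0.149, exact permutation p = 0.0216), and without wild-type replicate 1 it was 0.32 and passed (limma adjusted p = 0.0374). In the fit without wild-type replicate 1, 750 of all genes passed, against 5 with all livers. The Slc16a1 probe covers positions 104462276 to 104462335 of chromosome 3 (mm9, plus strand) and is dim, at 143 to 254 units over a local background of 24 to 45, though well above background on all 15 arrays. The Acat1 probe covers positions 53389868 to 53389927 of chromosome 9 (mm9, minus strand) and is bright, at 13873 to 27547 units.

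**Figure D2:**
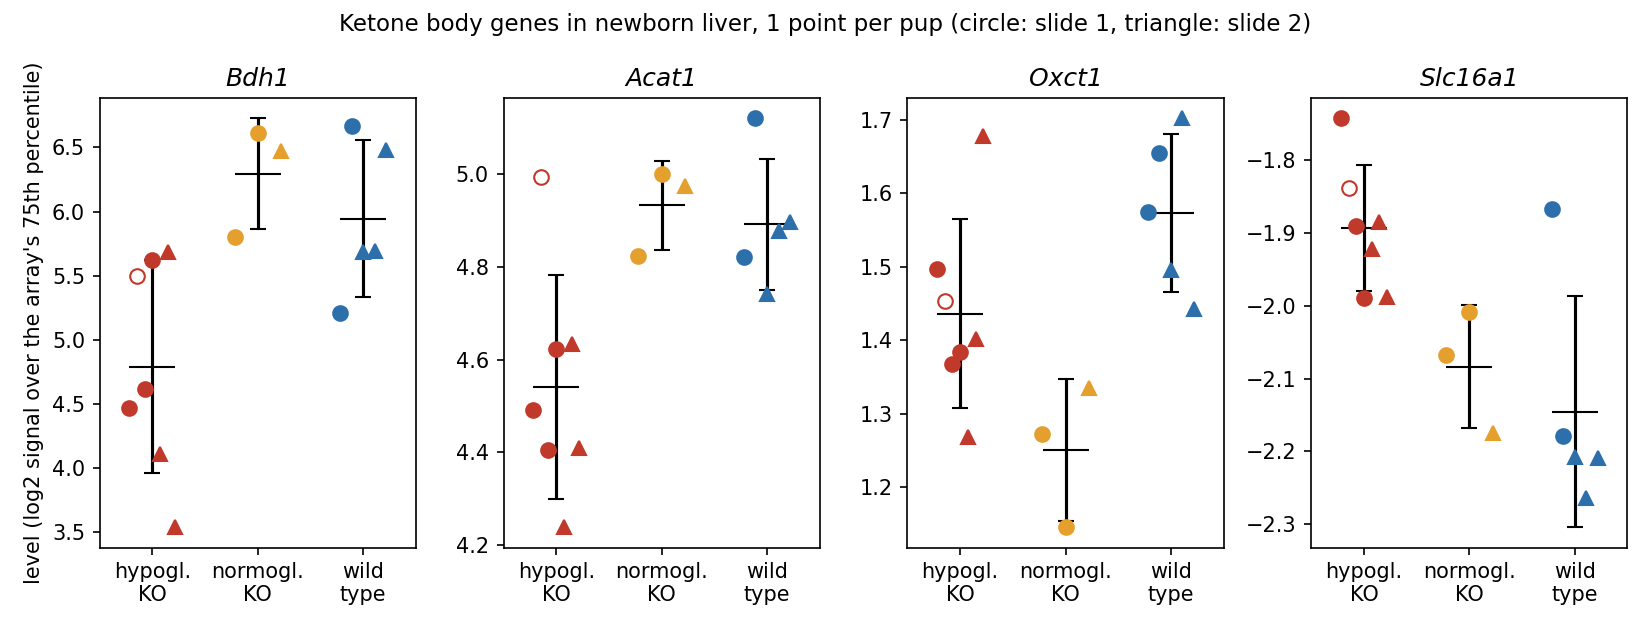
Log2 level of Bdh1, Acat1, Oxct1 and Slc16a1 in hypoglycaemic KO, normoglycaemic KO and wild-type livers, 1 point per pup, with the mean and SD of each group (circles slide 1, triangles slide 2). The open circle is the library labelled hypoglycaemic KO replicate 2. The hypoglycaemic KO mean is lowest for Bdh1 and Acat1 and highest for Slc16a1, and the normoglycaemic KO mean is lowest for Oxct1.

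Counted over all genes, 0 of the 4 genes passed the adjustment over all genes between hypoglycaemic KO and wild type, where 0.0181% of all genes passed (limma, adjusted p under 0.05). At an unadjusted p under 0.05 there were 3, Bdh1, Acat1 and Slc16a1, against 18.7% of all genes. None of the 4 had groups that did not overlap, against 1.47% of the genes measured on every array. The median difference of the 4 was −0.24, and that of all genes 0.02. With the library labelled hypoglycaemic KO replicate 2 left out, 0 of the 4 passed, where 138 of the 27554 genes did. The same 3 then had an unadjusted p under 0.05, against 18.5% of genes. The groups then did not overlap for Acat1, against 2.84% of genes.

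Normoglycaemic KO livers lay below wild-type livers for Oxct1 and overlapped them for the other 3 genes. Against wild type 0 of the 4 genes passed, where 0.0% of all genes did, and 1 had an unadjusted p under 0.05, which was Oxct1, against 4.79% of all genes. Oxct1 was also the 1 gene whose groups did not overlap, against 3.87% of genes. Bdh1 lay 0.35 higher (95% interval −0.69 to 1.39), Acat1 0.04 higher (−0.26 to 0.35) and Slc16a1 0.06 higher (−0.14 to 0.27), with limma adjusted p-values of 0.98, 0.999 and 0.986. Within slide 1 the differences of Acat1 and Slc16a1 had the opposite sign (−0.06 and −0.02), and that of Oxct1 was −0.40, against −0.21 within slide 2.

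The KO groups share the deletion and differ in glucose, and between them the widest difference was again that of Bdh1. The comparison shares its livers with the other two and adds no further animals. Bdh1 was 2.83-fold lower in hypoglycaemic KO than in normoglycaemic KO livers (−1.50, SE 0.46, limma adjusted p = 0.121, exact permutation p = 0.025). Acat1 was 1.31-fold lower (−0.39, SE 0.13, adjusted p = 0.148 by limma, exact permutation p = 0.05). Slc16a1 was 1.14-fold higher (0.19, SE 0.09, limma adjusted p = 0.270), with an exact permutation p of 0.00833, the smallest that 120 splits allow. Oxct1 was 1.14-fold higher (0.18, SE 0.09, limma adjusted p = 0.288, exact permutation p = 0.0667). None of the 4 passed the adjustment, where 0.0544% of all genes did. At an unadjusted p under 0.05 there were 2, Bdh1 and Acat1, against 19.3% of genes, and the groups did not overlap for 2, Bdh1 and Slc16a1, against 9.12%. Without the library labelled hypoglycaemic KO replicate 2 the differences were −1.62 for Bdh1, −0.47 for Acat1, 0.18 for Oxct1 and 0.18 for Slc16a1, with exact permutation p-values of 0.0357, 0.0119, 0.0833 and 0.0238. The groups then did not overlap for 3, Acat1 as well, against 11.5% of genes. Within slide 1 and slide 2 those of Bdh1 were −1.16 and −2.03, with 1 normoglycaemic KO liver on slide 2.

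Across all 15 pups the level of 3 of the 4 genes changed with blood glucose, where 16.8% of all genes did (limma slope on glucose, adjusted p under 0.05 over all genes). The same 3 had an unadjusted p under 0.05, against 31.7% of genes. Bdh1 rose by 0.34 on the log2 scale for each 10 mg/dl (SE 0.08, limma adjusted p = 0.0129) and Acat1 by 0.10 (SE 0.02, limma adjusted p = 0.0175). Slc16a1 fell by 0.06 (SE 0.02, limma adjusted p = 0.0162). The slope of Oxct1 was 0.02 (SE 0.02, limma adjusted p = 0.643). Without the library labelled hypoglycaemic KO replicate 2 the slopes were 0.38, 0.12, −0.06 and 0.02 for Bdh1, Acat1, Slc16a1 and Oxct1, and the first 3 passed again. In that fit 4257 genes passed in all. Without the 3 livers richest in pancreas transcripts none of the 3 passed: Bdh1 gave 0.32 (limma adjusted p = 0.128), Acat1 0.08 (0.186) and Slc16a1 −0.08 (0.0649), and the genes passing in all fell to 588, against 4631 with all livers. Those livers were wild-type replicate 2 at 72 mg/dl, the highest glucose of all pups, normoglycaemic KO replicate 2 at 56 and hypoglycaemic KO replicate 3 at 12 mg/dl. Leaving them out thus also narrowed the range of glucose. The part of pancreas RNA in these slopes was not tested, nor that of the narrower range.

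Glucose and group overlap in this design, so the slope over all pups also holds the differences between groups. With a mean for each group and a common slope within groups, 0 of the 4 genes passed, where 0.0% of all genes did, and 0 had an unadjusted p under 0.05, against 18.1% of genes. The within-group slope was 0.37 for Bdh1 (SE 0.19, limma adjusted p = 0.330), 0.08 for Acat1 (0.524), 0.01 for Oxct1 (0.906) and −0.05 for Slc16a1 (0.558). For Bdh1, Acat1 and Slc16a1 these values are close in size to the slopes over all pups, with wider errors. Leaving out the library labelled hypoglycaemic KO replicate 2 gave 0.41 for Bdh1 (limma adjusted p = 0.261), 0.10 for Acat1 (0.198), 0.01 for Oxct1 (0.900) and −0.05 for Slc16a1 (0.586). Bdh1 and Acat1 then had an unadjusted p under 0.05, against 18.2% of genes. The Bdh1 slope was 0.56 and passed without hypoglycaemic KO replicate 7 (limma adjusted p = 0.0284), the liver with the lowest Bdh1 level at 29 mg/dl. It stayed on the same side of the threshold in the other 24 of 25 alternatives. With each of the 15 livers left out in turn, the genes passing numbered 0 to 981 in all.

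The correlation with glucose was positive for Bdh1 and Acat1 and negative for Slc16a1. Bdh1 correlated at r = 0.739 (rho = 0.788) over the 15 pups, with permutation p-values of 0.00166 and 0.00076. Acat1 gave r = 0.740 (rho = 0.727, permutation p = 0.0022 and 0.00297) and Slc16a1 r = −0.787 (rho = −0.749, permutation p = 0.00071 and 0.0018). Oxct1 gave r = 0.218 (rho = 0.198, permutation p = 0.433 and 0.476). Without the 2 pups farthest from the median glucose, r was 0.676 for Bdh1, 0.664 for Acat1, 0.251 for Oxct1 and −0.714 for Slc16a1. With the library labelled hypoglycaemic KO replicate 2 left out, r was 0.779, 0.899, 0.234 and −0.765 for the genes in that order. On slide 1 (n = 8) and slide 2 (n = 7) r was 0.849 and 0.722 for Bdh1, 0.741 and 0.855 for Acat1, 0.103 and 0.359 for Oxct1, and −0.811 and −0.914 for Slc16a1.

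Within the 7 hypoglycaemic KO pups, r was 0.238 for Bdh1 (rho = 0.286, exact permutation p = 0.597 and 0.556), 0.152 for Acat1 (rho = 0.357, exact permutation p = 0.766 and 0.444) and 0.293 for Oxct1 (rho = 0.143, exact permutation p = 0.549 and 0.783). Slc16a1 gave r = −0.780 (exact permutation p = 0.0357) and rho = −0.714 (exact permutation p = 0.0881). Without the 2 farthest pups r fell in size to −0.444 (n = 5). No p-value was computed for those 5 pups, so whether the relation rests on the 2 left out cannot be told. Without the library labelled hypoglycaemic KO replicate 2, r was 0.337, 0.544, 0.309 and −0.772 for Bdh1, Acat1, Oxct1 and Slc16a1 (n = 6). The normoglycaemic KO and wild-type groups (n = 3 and 5) were given no correlation of their own. The 8 main correlations, 4 over all pups and 4 within hypoglycaemic KO, were each repeated on other sets of the same pups, which makes 32 in all, and their p-values are not adjusted.

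**Figure D3:**
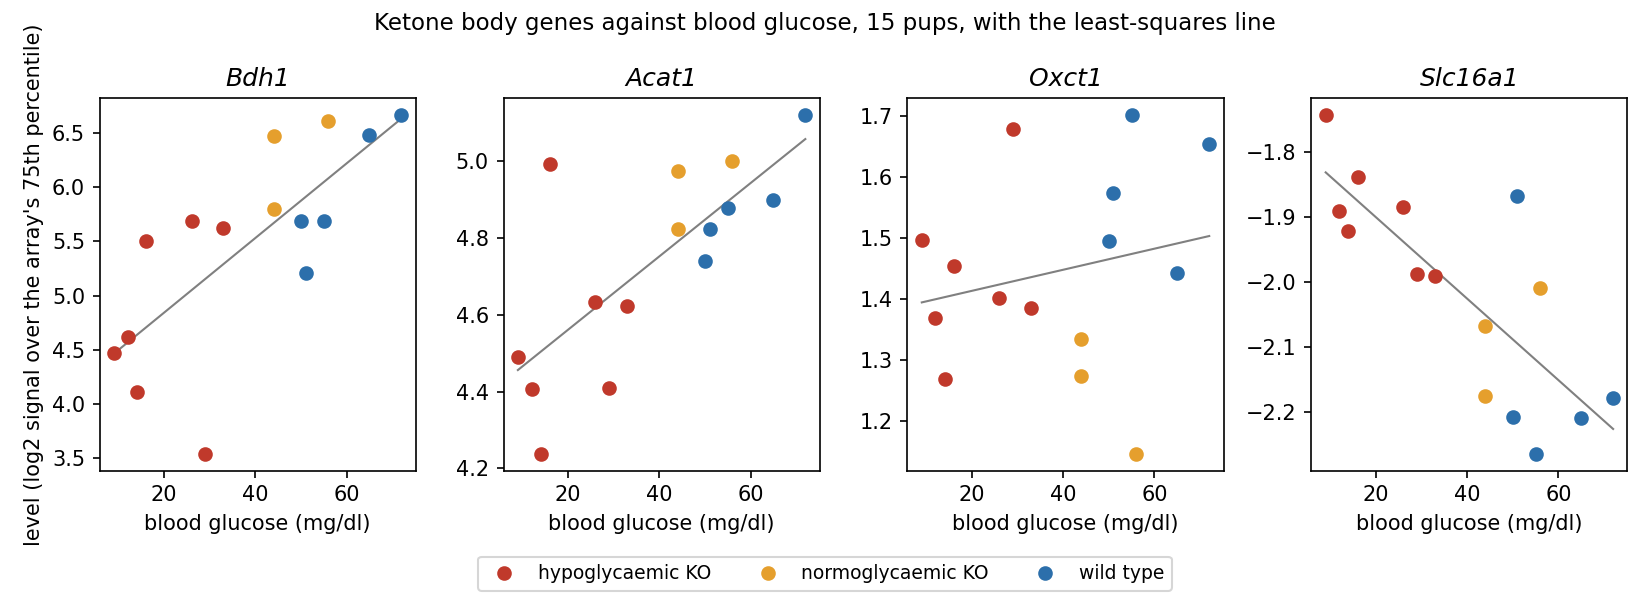
Log2 level of each gene (y axis) against blood glucose in mg/dl (x axis) for the 15 pups, coloured by group, with the least-squares line over all pups. Bdh1 and Acat1 slope upward and Slc16a1 downward with glucose, while Oxct1 shows no clear slope. The lone low Bdh1 point, at 29 mg/dl, is hypoglycaemic KO replicate 7.

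Across the 15 livers Bdh1 and Acat1 correlated at r = 0.877, and at 0.732 within the 7 hypoglycaemic KO livers. Slc16a1 correlated at −0.575 with Bdh1 and −0.499 with Acat1 over all livers, but at 0.128 and 0.251 within hypoglycaemic KO. Oxct1 gave −0.210 with Bdh1, 0.0753 with Acat1 and −0.206 with Slc16a1. Over the 14 livers other than the library labelled hypoglycaemic KO replicate 2, Bdh1 and Acat1 gave 0.909, and Slc16a1 gave −0.607 with Bdh1 and −0.636 with Acat1. These are descriptions over livers that share their arrays and the differences between groups.

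Of 14768 other named genes well above background on every array, those whose levels over the 15 livers were most like Bdh1 were Cd1d1 (r = 0.972), Pygl (0.970) and Ank2 (0.970). Cd1d1 presents lipids to T cells, Pygl is the liver glycogen phosphorylase and Ank2 is a membrane anchor protein. Nearest to Acat1 were Gckr (r = 0.958), the regulator of glucokinase, Il1rap (0.953), a chain of the interleukin-1 receptor, and Iyd (0.951), which recycles iodide from iodotyrosines. Nearest to Oxct1 were Spop (r = 0.862), Tbc1d9b (0.839) and Ndufaf6 (0.836), and nearest to Slc16a1 were Ssu2 (0.936), Bcas3os2 (0.930) and Arhgap15 (0.928). The difference of hypoglycaemic KO from wild type was −1.10 for Cd1d1 and −1.03 for Gckr, both without passing (limma adjusted p = 0.118 and 0.0887). It was −0.37 for Pygl, −0.92 for Ank2, −0.84 for Il1rap and −0.76 for Iyd, none passing. These genes were picked for their likeness to Bdh1 or Acat1 over the same livers, group differences included. Their differences thus add no separate evidence.

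The rest of the pathway was read through 14 other enzymes and transporters of ketone bodies. Against wild type 0 of 14 passed in hypoglycaemic KO and 0 of 14 in normoglycaemic KO livers, where 0.0181% and 0.0% of all genes did. The median differences were −0.08 and 0.12, against 0.02 and 0.01 for all genes. At an unadjusted p under 0.05, 2 were higher and 2 lower in hypoglycaemic KO livers, where 18.7% of all genes passed that threshold. In normoglycaemic KO livers 1 was higher, where 4.79% of all genes passed it. Acat2, the cytosolic thiolase of sterol synthesis, was 2.21-fold lower in hypoglycaemic KO livers (−1.15, SE 0.27, limma adjusted p = 0.0887). Its levels were 0.71 ± 0.54 in hypoglycaemic KO, 1.66 ± 0.41 in normoglycaemic KO and 1.85 ± 0.46 in wild-type livers (SD, n = 7, 3 and 5).

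Other members of this list gave smaller differences between hypoglycaemic KO and wild type. Bdh2, a cytosolic dehydrogenase, gave −0.44 (limma adjusted p = 0.397), Aacs, which activates acetoacetate for lipid synthesis, −0.06 (0.868), and Slc16a6, a transporter needed for ketone body export in zebrafish, −0.29 (0.438). The MCT chaperones were Bsg, which partners MCT1, at −0.19 (limma adjusted p = 0.335), and Emb, which partners MCT2, at 0.38 (0.0897). Over all pups the slope on glucose passed for 4 of the 14, where 16.8% of all genes passed. It was upward for 3, among them Acat2 (0.30, limma adjusted p = 0.00343) and Bsg (0.07, 0.0278), and downward for Emb (−0.09, 0.0120).

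Of 14 genes that bring fatty acids to acetyl-CoA in mitochondria, 0 passed in either KO group against wild type. Of all genes 0.0181% passed in hypoglycaemic KO and 0.0% in normoglycaemic KO livers. In hypoglycaemic KO livers 13 of 14 had a difference below 0, with a median of −0.17, and in normoglycaemic KO livers 4 of 14, with a median of 0.05. The medians of all genes were 0.02 and 0.01, and the share of all genes below 0 was not counted. At an unadjusted p under 0.05, 2 were lower in hypoglycaemic KO livers and 0 passed in normoglycaemic KO livers, against 18.7% and 4.79% of all genes. Cpt1a, which admits long-chain fatty acids to mitochondria, differed by −0.03 in hypoglycaemic KO (SE 0.16, limma adjusted p = 0.939). Over all pups 3 of 14 rose with glucose, where 16.8% of all genes passed in either direction: Hadh, a beta-oxidation dehydrogenase, by 0.22 for each 10 mg/dl (limma adjusted p = 0.00943), Acaa2, a thiolase of beta-oxidation, by 0.12 (0.0199), and Hadhb, a subunit of the trifunctional protein, by 0.08 (0.0306).

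Leucine and isoleucine also end in acetoacetate and acetyl-CoA. Of 12 genes of their breakdown 0 passed in either KO group against wild type, where 0.0181% (hypoglycaemic KO) and 0.0% (normoglycaemic KO) of all genes did. The median difference was 0.01 in hypoglycaemic KO and −0.18 in normoglycaemic KO livers, where all 12 lay below 0. For all genes the medians were 0.02 and 0.01, and the share below 0 was not counted. At an unadjusted p under 0.05, 1 was lower in hypoglycaemic KO livers and 5 in normoglycaemic KO livers, against 18.7% and 4.79% of all genes. Over all pups 1 of 12 passed, against 16.8% of all genes. It was Hsd17b10, a dehydrogenase of isoleucine breakdown, whose slope was −0.11 (limma adjusted p = 0.0297).

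Of 8 regulators of ketogenesis 0 passed in either KO group against wild type, where 0.0181% (hypoglycaemic KO) and 0.0% (normoglycaemic KO) of all genes did. Their medians were 0.02 in hypoglycaemic KO and −0.20 in normoglycaemic KO livers. At an unadjusted p under 0.05, 1 and 2 were lower, against 18.7% and 4.79% of all genes. Between the KO groups, and for the slope within groups, no gene of the 4 lists passed either, where 0.0544% and 0.0% of all genes did. Ppara, the fatty acid receptor that switches on ketogenic genes, differed by 0.02 in hypoglycaemic KO (limma adjusted p = 0.927) and by −0.37 in normoglycaemic KO livers (0.965). Over all pups 2 of 8 fell with glucose, where 16.8% of all genes passed in either direction: Ppargc1a, a coactivator of fasting genes, by 0.36 for each 10 mg/dl (limma adjusted p = 0.0254) and Rxra, the partner of PPARA, by 0.08 (0.0259). Mean Ppargc1a levels were 3.18 ± 0.97 in hypoglycaemic KO, 1.25 ± 0.58 in normoglycaemic KO and 2.40 ± 0.56 in wild-type livers. Of the 10 slopes over all pups that passed in the 4 lists, 9 passed without the library labelled hypoglycaemic KO replicate 2. Only 3 passed without wild-type replicate 2, 4 without hypoglycaemic KO replicate 1, and 5 each without hypoglycaemic KO replicates 3 and 5. Over all genes 4631 passed with all livers, 4257 without the library labelled hypoglycaemic KO replicate 2, and 2528 to 5469 with each liver left out in turn. Without the 3 livers richest in pancreas transcripts 1 of the 10 passed, Acat2 (0.34 for each 10 mg/dl, limma adjusted p = 0.0415).

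The list values above include the library labelled hypoglycaemic KO replicate 2. When it was left out, 0 genes of the 4 lists passed between hypoglycaemic KO and wild type, where 138 of all genes did. The median differences were then −0.05 for the other ketone body genes and −0.16 for fatty acid supply, where 13 of 14 again lay below 0. They were −0.01 for leucine and isoleucine breakdown and −0.02 for the regulators. At an unadjusted p under 0.05 there were 5 of 14, 3 of 14, 1 of 12 and 1 of 8 genes in these lists, against 18.5% of all genes. Acat2 was then at −1.23 (limma adjusted p = 0.0662). This alternative was chosen after seeing the data.

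**Figure D4:**
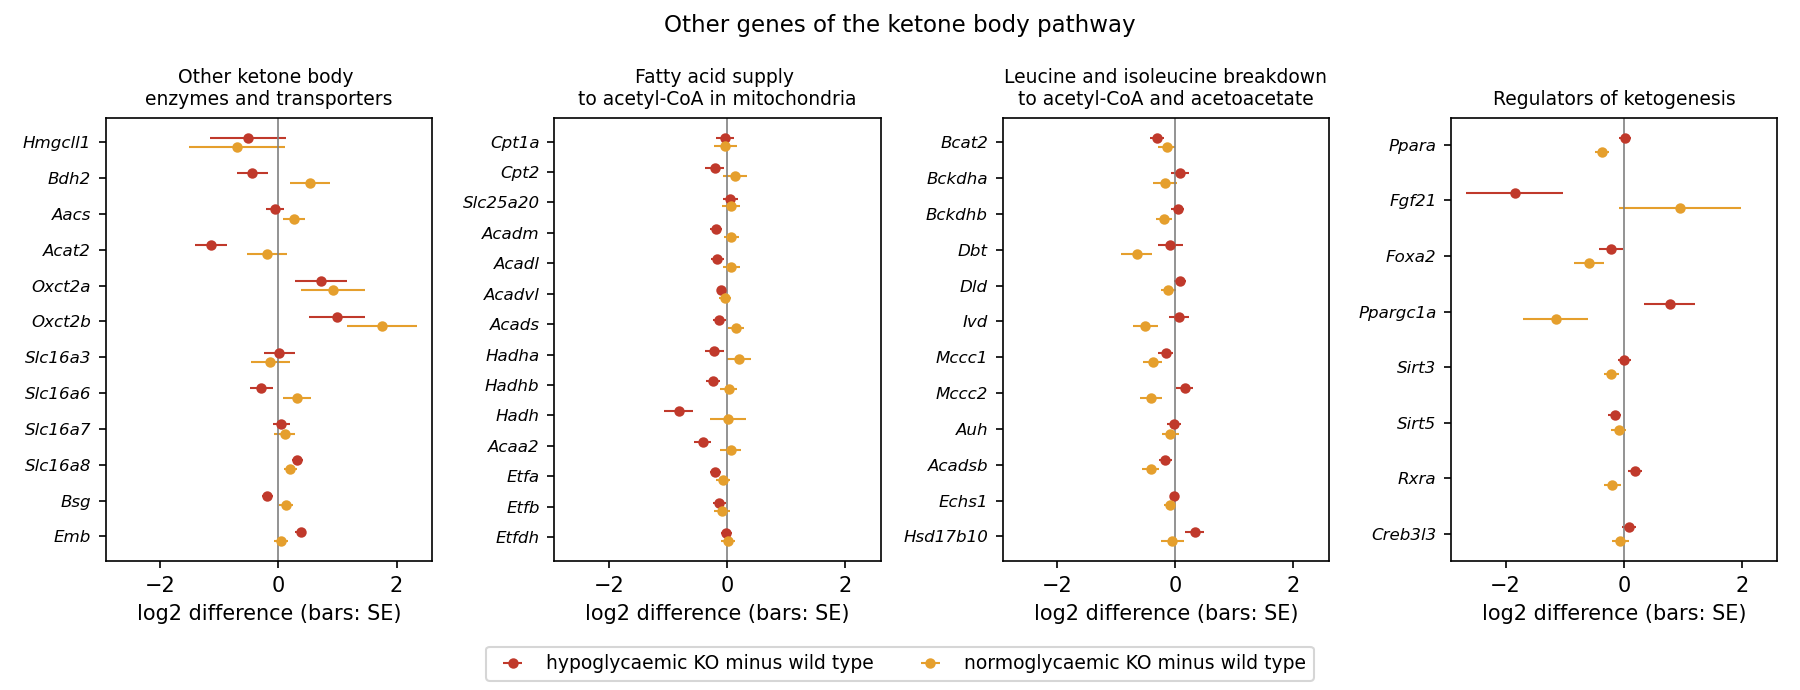
Log2 differences from wild type (x axis, bars SE) of other genes of the pathway, with hypoglycaemic KO in red and normoglycaemic KO in orange. Differences above 0 are higher in KO livers. In the panel of fatty acid supply 13 of 14 hypoglycaemic KO points lie below 0, and in the panel of leucine and isoleucine breakdown all 12 normoglycaemic KO points do. The share of all genes below 0 was not counted.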

How the data were processed

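Liver RNA of 15 pups was measured on 1-colour Agilent arrays, 1 pup per array, with 3 groups taken from the sample titles and glucose from the labels. The deposited intensity values of the scanner files were made by the authors with Agilent Feature Extraction 10.10, per the submitters' processing notes, and gProcessedSignal is background-subtracted, per the file headers. The log2 values of the deposited series matrix were made with limma, per the same notes, and served as an alternative. Coordinates are of mm9, per the file headers.

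Levels are log2 gProcessedSignal, centred on the 75th percentile of each array with the 3671 control spots of 62976 left out. Spots marked as outliers, 176 to 546 per array, were set to missing. Probes had to be well above background on 3 or more of the 15 arrays (41153 of 55681 were kept), and the brightest stood for a gene. One linear model with 3 group means over all 15 arrays (12 residual degrees of freedom), and models with a slope on glucose, were fitted with limma 3.58.1 in R 4.3.3. Their p-values were adjusted by Benjamini-Hochberg over 27554 genes. Non-overlap was counted over 26561 genes measured on every array. The fits were tested on simulated data. Single values were compared by exact 2-sided permutation tests over 792, 56 or 120 splits, and correlations by permutation (100000 resamples, exact below 10 pups). Python 3.11.15 was used for these steps. The number of arrays limits the precision.

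Alternatives were the background correction, normalization, deposited values, filter, probe rule, slide, pairing and leaving out arrays. The members, lists and tests were chosen with earlier results of these data known. Named genes were the 4 members, Bdh2, Aacs, Slc16a6, Bsg, Ppara and Cpt1a whatever their values, list genes passing an adjusted p of 0.05 in a comparison, and for each member the 3 most correlated genes. Some genes that the rule names are counted in their list but not reported here. Markers of 9 cell or tissue types were summed, of which those that bear on the results are given. Sums for erythroid cells were 1773 to 2110 in hypoglycaemic KO, 1769 to 2029 in normoglycaemic KO and 1676 to 2100 in wild-type livers, for granulocytes 714 to 859, 625 to 842 and 704 to 782, for Kupffer cells 216 to 277, 236 to 269 and 202 to 402, for endothelium 44.4 to 61.2, 38.3 to 49.7 and 37.0 to 56.6, for stellate cells 94.3 to 140, 91.6 to 117 and 95.4 to 120, and for bile duct 2.72 to 4.21, 2.61 to 3.82 and 2.77 to 4.46 in that order of groups.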

Additional observations from a re-analysis of the deposited data

Results flagged for a closer look

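Slc16a1 in wild-type replicate 1 lay far from the other wild-type livers, at −1.87, where the nearest of the others was −2.18; the gap takes up 0.784 of the range of the 5 wild-type livers. It is 1 of 8 groups of 4 to 10 livers examined in this way, and chance marks about 1 group in 20. Without this liver the difference of hypoglycaemic KO from wild type was 0.32 (limma adjusted p = 0.0374), against 0.25 with it. The genes passing in all then numbered 750, against 5 with all livers.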

How the results depend on the processing

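Of 524 recomputed values of the 4 genes (20 values), 504 kept their direction and their side of the threshold, 11 no longer passed, 2 newly passed and 7 turned sign. The group differences of Bdh1 and Acat1 from wild type in hypoglycaemic KO kept their sign in all 27 alternatives, at −1.50 to −0.89 and −0.43 to −0.27, and passed in none (lowest limma adjusted p 0.0811 and 0.0564). That of Slc16a1 was 0.16 to 0.32 and passed only without wild-type replicate 1. Signs turned for small values: in normoglycaemic KO against wild type within slide 1 for Acat1 (−0.0587) and Slc16a1 (−0.0153), and for the within-group glucose slope of Oxct1 with normexp (−0.0036), with the deposited log2 values (−0.0135), within slide 1 (−0.0140) and without wild-type replicate 2 or hypoglycaemic KO replicate 7 (range over the 15 livers left out in turn −0.0145 to 0.0288). The within-group slope of Bdh1 was 0.31 to 0.56 when each liver was left out. The slopes over all pups no longer passed within slide 1 or slide 2, at 0.30 and 0.45 for Bdh1, 0.0829 and 0.129 for Acat1 and −0.0493 and −0.0789 for Slc16a1, with 8 and 7 livers. The other losses were Acat1 without wild-type replicate 2 (0.0905, limma adjusted p = 0.0590) and Slc16a1 without hypoglycaemic KO replicate 1 (−0.0568, limma adjusted p = 0.0568), in ranges of 0.0818 to 0.117 and −0.0681 to −0.0568, and all 3 without the 3 livers richest in pancreas transcripts (0.315, 0.0783 and −0.0768), an alternative chosen after seeing the data. Fewer livers entered the fits within a slide and those with livers left out, while normexp and the deposited values used all 15. The cause of these changes was not tested.

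Correlations with glucose moved as follows: Bdh1 on slide 2 alone gave 0.722 (exact permutation p = 0.0742), and within hypoglycaemic KO without the 2 farthest pups r was 0.766 for Bdh1, 0.334 for Acat1, −0.124 for Oxct1 and −0.444 for Slc16a1. The number of genes passing moved far more than the values of the 4 genes. Between hypoglycaemic KO and wild type it was 5, with 83 under normexp, 50 with the deposited values, 2 without a filter, 91 with probes above background on all arrays, 0 within either slide, 3 with only the 2 groups, 0 without the pancreas-rich livers and 0 to 750 when each liver was left out (138 without the library labelled hypoglycaemic KO replicate 2, 750 without wild-type replicate 1). Between normoglycaemic KO and wild type it was 0, with 2 under quantile normalization and with the deposited values, 1 with probes above background on all arrays, 3 within slide 2, 3 with only the 2 groups and 0 to 2 when each liver was left out. Between hypoglycaemic and normoglycaemic KO it was 15, with 147 under normexp, 30 with the deposited values, 4 without a filter, 165 with probes above background on all arrays, 9 with the mean over probes, 0 with slide as a block, 0 within slide 1, 3 within slide 2, 2 with only the 2 groups, 0 without the pancreas-rich livers and 0 to 947 when each liver was left out. For the slope within groups it was 0, with 343 under normexp, 21 under quantile normalization, 290 with the deposited values, 526 with probes above background on all arrays, 4 with slide as a block, 1 within slide 1 and 0 to 981 when each liver was left out. For the slope over all pups it was 4631, with 0 within either slide, 588 without the pancreas-rich livers and 2528 to 5469 when each liver was left out.

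Same-numbered livers of different groups correlated at −0.17 to 0.32 in their deviations from the group means, and 6 of 13 correlated best with their own number. How many would do so by chance was not computed, and all livers numbered 1 or 2 lay on slide 1. Whether the numbers pair the livers thus cannot be told from these values. With the replicate number as a block, the differences of hypoglycaemic KO from wild type were −1.08 for Bdh1, −0.34 for Acat1, −0.18 for Oxct1 and 0.27 for Slc16a1, none passing (limma adjusted p from 0.112 to 0.222). Genes passing under the replicate block numbered 0 between hypoglycaemic KO and wild type, 1 between normoglycaemic KO and wild type and 0 between the KO groups.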
